A study of Parasteatoda tepidariorum with 16 samples.

Results

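The cytosolic ribosomal protein genes are described here across early embryos of the house spider *Parasteatoda tepidariorum*. They were chosen by their annotation alone: every gene of the deposited count file whose description opened with "40S ribosomal protein", "60S ribosomal protein" or "60S acidic ribosomal protein" was taken. The rule found 82 of 27990 genes, of which 34 belonged to the small subunit and 47 to the large subunit, while 1 (g14409) was described as a mitochondrial protein S12 and is kept apart where it matters.

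RNA-seq was performed on small pools of cells drawn with glass capillaries from the germ disc, the cell sheet that becomes the spider's body. At stage 3 (20 h after egg laying) the libraries came from intermediate (i, 3 libraries), central (c, 2) and peripheral (p, 3) cells, and at stage 4 (28 to 29 h) and early stage 5 (31 to 32 h) from c and p cells (2 libraries each). Embryos were untreated, and the labels give 10 to 100 cells for a library. A single mother gave the stage 3 c and p cells, another the stage 3 i cells, and another each later stage. A difference between stages, or between i cells and the others, therefore cannot be told apart from a difference between mothers.

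The cytosolic ribosome is built from a small subunit, which reads the mRNA, and a large subunit, which joins amino acids. Each subunit holds ribosomal RNA and a set of proteins of which most are present at a single copy, so that their mRNAs are usually abundant and change together. In animal embryos the egg supplies ribosomes made in the ovary, and the embryo later transcribes ribosomal genes of its own.

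The 82 genes covered 66 of 79 proteins of the standard animal set, 27 of 32 in the small subunit and 39 of 47 in the large subunit. No gene fitted the rule for S27, S27a, S28, S29, S30, L29, L36a, L37, L37a, L38, L39, L40 or L41. For S27a and L40 the annotation has ubiquitin fusion genes, which the wording of the rule left out. Of the 66 proteins, 51 had a single gene model and 15 had 2 models. The models lay on 80 scaffolds of the Ptep_1.0 assembly, and no scaffold held more than 2. They were short, with a median length of 712.5 bp against 2022 bp for all 13511 genes that reached 1 CPM (counts scaled to a common library size) in at least 1 library.

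Libraries held 5948619 to 10500376 counts on genes at stage 3, 7100948 to 10045889 in the stage 4 group and 4566853 to 5896305 in the early stage 5 group. A count of 0 allows up to 0.286 to 0.657 CPM, depending on the library. Intervals and floors cover counting error only, since the reads were amplified and carry no molecular identifier. Region labels were checked with 3 genes of the disc centre, which the study picked from these libraries: g4238 was at 403 to 2270 CPM in c libraries and at most 1.28 CPM in the others, and g14287 and g132 were also above 3 CPM in each c library and below 0.2 CPM elsewhere. Picked in this way, they are no independent check. The rim genes g4322, g7954 and g12202 were higher in the p than the c libraries at stage 4 and early stage 5. For g8250, another rim gene, this held at early stage 5 alone. At stage 4 it had 16.3 and 63.8 CPM in c cells against 26.6 and 142 CPM in p cells. At stage 3 p and i cells overlapped in each rim gene. For g4322 they had 52.4, 63.0 and 0 CPM, and 0, 65.0 and 9.15 CPM. The library of p cells replicate 2 at stage 4 stood apart in g26874 (*fuchi*, a gene of the disc centre and of the side opposite the disc), with 512 CPM against 37.5 CPM in the other p library of that stage. At early stage 5, p cells replicate 2 likewise had 289 CPM of this gene against 62.7 CPM in replicate 1. The part of this in the comparisons of c and p cells was not tested.

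The ribosomal protein genes took about 5% of the counts at stage 3 and more than 11% at each later stage. Their share was 5.08%, 5.12% and 5.20% in stage 3 i cells, 4.34% and 5.52% in stage 3 c cells, and 6.06%, 5.12% and 4.21% in stage 3 p cells. At stage 4 it was 12.4% and 13.7% in c cells and 11.6% and 11.7% in p cells, and at early stage 5 it was 14.6% and 14.8% in c cells and 14.4% and 15.9% in p cells. No stage 4 or early stage 5 library overlapped a stage 3 library, and no early stage 5 library overlapped a stage 4 library. The 95% Wilson interval of each share lay within 0.0325 percentage points of it, which is less than the SD between replicates in every group. Shares are relative to all counts of a library, so that more ribosomal protein RNA and less of other RNA cannot be told apart. Nor can fewer cells of a type and less RNA per cell.

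**Figure D1:**
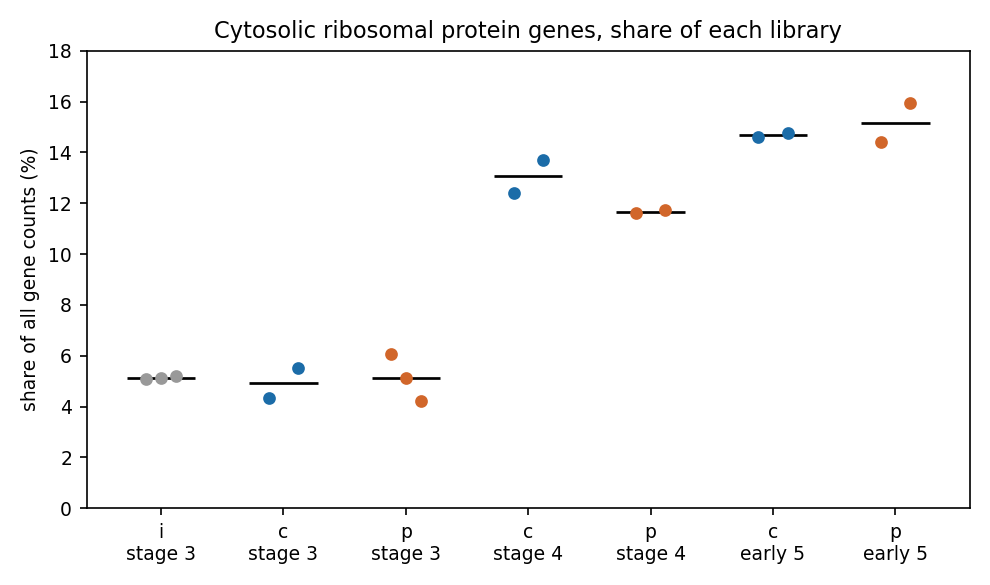
Share of all gene counts taken by the 82 ribosomal protein genes, in percent, for each of the 16 libraries (points) with the mean of each group (line); blue stands for c cells, orange for p cells and grey for i cells. The 8 stage 3 libraries lie between 4.21% and 6.06%, the 4 stage 4 libraries between 11.6% and 13.7%, and the 4 early stage 5 libraries between 14.4% and 15.9%.

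As the mean of c and p cells, the share was 2.45-fold higher at stage 4 than at stage 3, 2.97-fold higher at early stage 5 than at stage 3, and 1.21-fold higher at early stage 5 than at stage 4. Per length the genes weighed more, as they are short: of the summed RPKM (reads per kilobase of gene model, scaled to library size) they took 9.71% to 13.8% at stage 3, 24.4% to 27.5% at stage 4 and 30.03% to 31.7% at early stage 5. Among the 100 genes of highest count in a library, 8 to 14 were ribosomal protein genes at stage 3, 24 to 29 at stage 4 and 28 to 35 at early stage 5. The number of members at 1 CPM or more was 66 to 73, 75 to 79 and 79 to 82 at the same stages.

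The balance between the subunits moved little. Counts on small-subunit genes were 0.431 to 0.539 times those on large-subunit genes at stage 3, 0.456 to 0.504 times at stage 4 and 0.490 to 0.497 times at early stage 5. The ranges of the 3 stages overlapped.

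Regions within a stage were compared first at stage 3, in the combinations of the study: c against i and p cells (comparison I), p against c and i cells (comparison II) and i against c and p cells (comparison III). The test was the quasi-likelihood test of edgeR, and p-values were adjusted by Benjamini-Hochberg across every gene in the fit, with a threshold of 0.05. Of 79 members tested, 0 were called in comparison I, where 0.396% of all 10860 genes were called. In comparison II 0 of 79 were called, against 0.101% of all genes, and in comparison III 0 of 79, against 0.184%. On simulated data the test missed most changed genes in these comparisons, so that 0 calls do not show equal levels. Unadjusted p was under 0.05 for 0, 4 and 4 of 79 members in the order of these comparisons, beside 573, 589 and 535 of all 10860 genes. The median log2 fold change of the members was -0.02 when c cells, 0.05 when p cells and -0.09 when i cells were set against the rest, beside -0.04, -0.14 and -0.29 over all genes tested.

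DESeq2's Wald test called 0, 0 and 2 members in these comparisons, and the other tests run called 0. The share of all genes that DESeq2 called is not given here for any comparison. P2 and L15 were the members that DESeq2 called in comparison III. P2 (g19196) had 710, 414 and 490 CPM in i cells, against 319 and 215 CPM in c cells and 248, 336 and 147 CPM in p cells. All i libraries lay above all others, with a log2 fold change of 1.11 ± 0.34 (SE) and an adjusted p of 0.31 in edgeR, against 0.0048 in DESeq2. L15 (g6355), a protein of the large-subunit core, went the other way, with 130, 139 and 130 CPM in i cells, against 226 and 399 CPM in c cells and 475, 337 and 296 CPM in p cells. Again the libraries did not overlap, with a log2 fold change of -1.36 ± 0.44 (SE) and an adjusted p of 0.40 in edgeR, against 0.00057 in DESeq2. This model shares a RefSeq locus ID with another L15 model, g21433, so that its level is uncertain, as described below. Groups did not overlap for 1 higher and 2 lower members in comparison III, beside 1.29% and 2.22% of all genes tested.

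Between c and p cells, 0 of 77 members tested at stage 3 were called by edgeR's test and 0 of 80 at stage 4, with 0 at an unadjusted p under 0.05 at both stages. Of all 10202 genes tested at stage 3, 0.245% were called and 363 had an unadjusted p under 0.05. Of all 10074 genes tested at stage 4, 0.486% were called and 445 had such a p. Here too most changed genes were missed on simulated data, so that 0 calls do not show equal levels. The median log2 fold change of the members was -0.04 at stage 3 and 0.06 at stage 4, beside 0.06 and 0.07 over all genes. DESeq2 called 2 members at stage 3, S11 (g1351) and L30 (g8051), both of which had few or no counts in most stage 3 libraries, and 0 at stage 4. At stage 4 the libraries did not overlap for 20 members higher and 2 lower in c cells, beside 16% and 12.2% of all genes tested. The share of all counts was 13.1% ± 0.94 in c cells and 11.7% ± 0.07 in p cells at that stage (SD, n = 2 each), with 12.4% as the lower c library and 11.7% as the higher p library.

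At early stage 5, 1 of 82 members was called between c and p cells, against 0.812% of all genes tested. It was P2 (g19196; Scaffold3141, 31426 to 38592), which with P1 forms the flexible stalk of the large subunit that recruits translation factors. P2 had 1953 and 2095 CPM in c cells, against 891 and 1043 CPM in p cells, and the libraries did not overlap. Its log2 fold change was 1.02 ± 0.18 (SE), with an adjusted p of 0.031 in edgeR. This call was lost in edgeR's likelihood ratio test (adjusted p = 0.24), with a filter of at least 10 counts in 2 libraries (0.056), with the replicate number as a block (0.22) and without any single library (0.19 to 0.82), and over its alternatives the adjusted p ranged from 2.2e-06 to 0.82. The median log2 fold change of the 82 members was -0.08, beside 0.18 for all genes tested. The libraries did not overlap for 8 members higher and 10 lower in c cells, beside 23.2% and 11.8% of all genes.

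Whether the difference between c and p cells differed between stages was tested as a stage by region interaction in the fit of 13 libraries. Of 82 members 0 were called in edgeR's quasi-likelihood test, against 0.0902% of all 13306 genes, and 0 were called in each other test run. Unadjusted p in the quasi-likelihood test was under 0.05 for 1 member (L30, g8051), beside 339 of all genes. This test also missed most changed genes on simulated data. P2 was at 319 and 215 CPM in c cells against 248, 336 and 147 CPM in p cells at stage 3, and at 1030 and 2302 CPM in c cells against 1498 and 978 CPM in p cells at stage 4. Those groups overlapped at both stages.

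**Figure D2:**
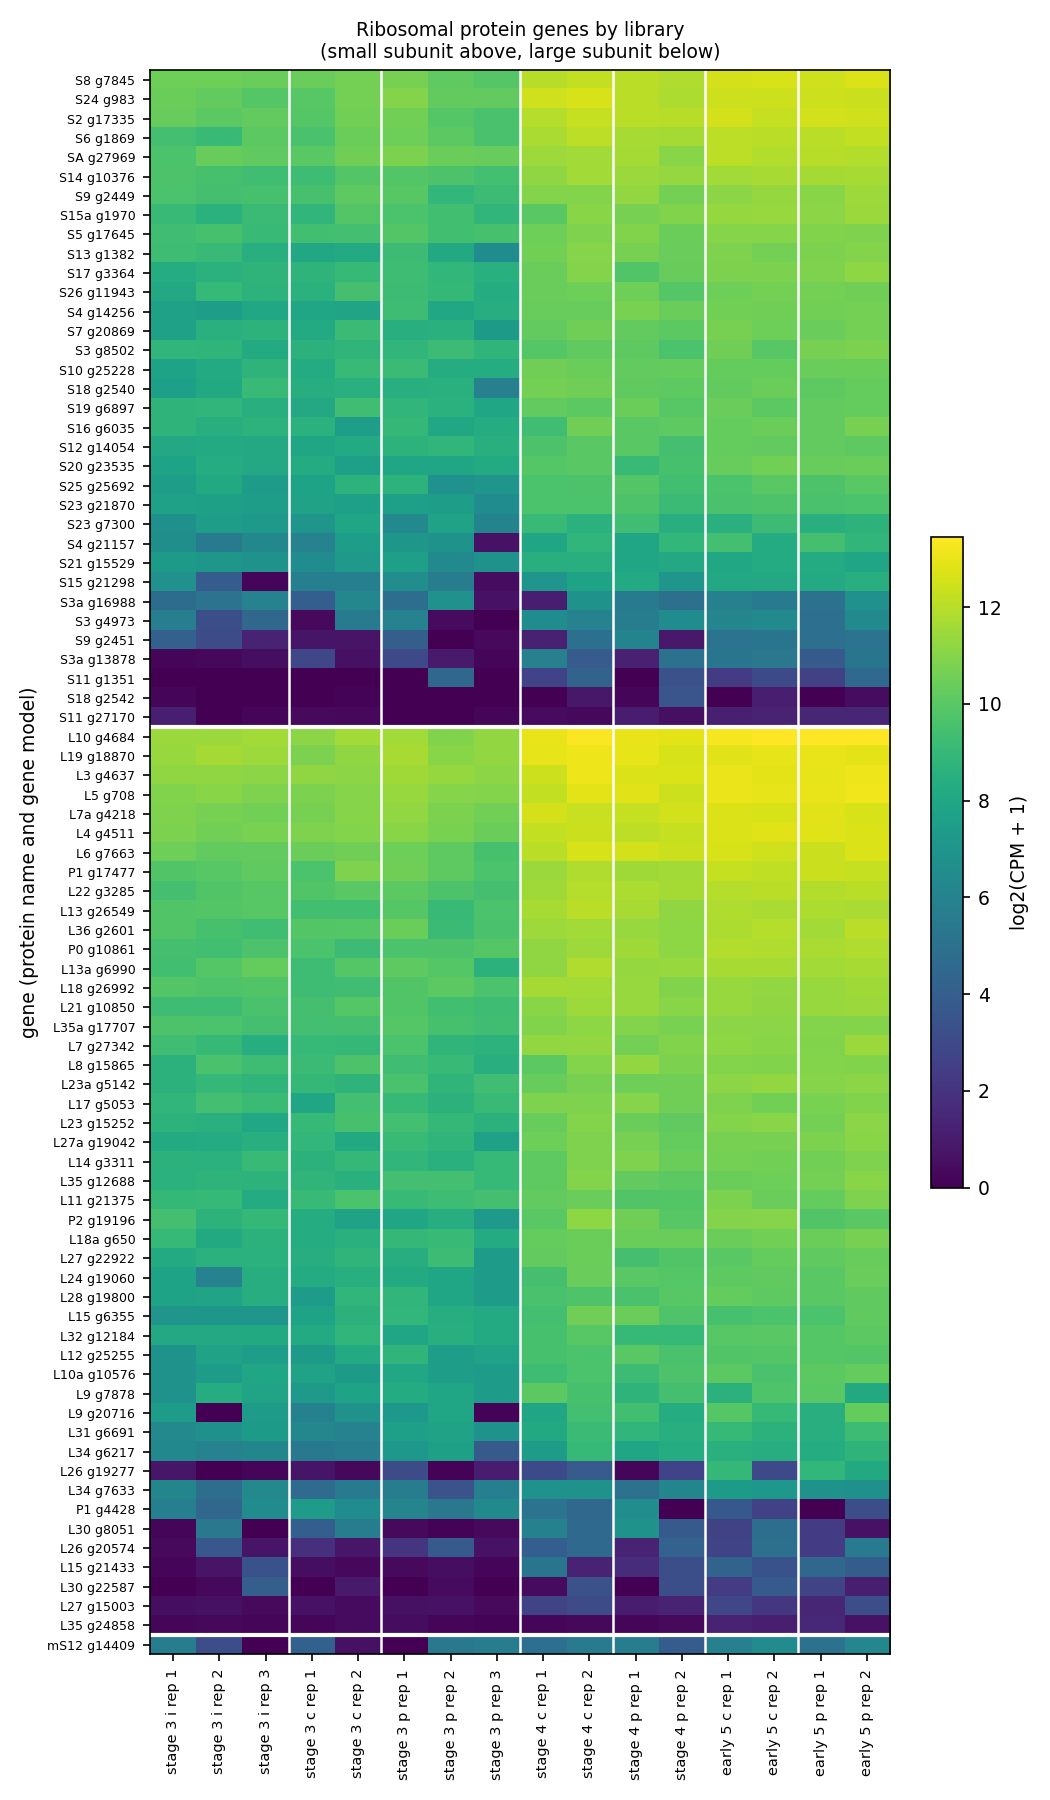
Level of each ribosomal protein gene (rows, protein name and gene model, in order of mean level within each subunit) in each of the 16 libraries (columns, grouped by stage and region), as log2(CPM + 1). Most rows are brighter in all 8 libraries of stage 4 and early stage 5 than in the 8 libraries of stage 3, and the dark rows at the foot of each block are mainly gene models of proteins with 2 models.

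Stages were compared over the 13 c and p libraries, as the mean of c and p cells. All 82 members passed the filter of 1 CPM in at least 1 library. From edgeR's quasi-likelihood test, 66 of 82 members were higher at stage 4 than at stage 3 and 0 were lower, while 4.86% of all 13306 genes were higher and 3.58% lower. The likelihood ratio test of edgeR called 38 members in the same comparison. The share of all genes that it called is not given here, so that this number has no background. The median log2 fold change was 1.79 for the members and 0.00 for all genes. In 66 members, not all of them called, every stage 4 library lay above every stage 3 c and p library, beside 3.71% of all genes tested. Within c cells alone 57 members were higher and 0 lower, and within p cells alone 60 were higher and 0 lower. Of all genes, 2.2% were higher and 1.59% lower within c cells, and 3.4% and 1.55% within p cells.

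At early stage 5, 66 of 82 members were higher than at stage 3 and 1 was lower, while 3.91% of all genes were higher and 2.72% lower. The median log2 fold change was 2.01, beside 0.47 for all genes, a difference of 1.55. The libraries did not overlap for 72 higher members and 1 lower member, beside 7.73% and 4.32% of all genes. Between early stage 5 and stage 4, 1 of 82 members was higher and 0 were lower, against 0.263% and 0.654% of all genes, and the median log2 fold change was 0.20, beside 0.30 for all genes. These comparisons share libraries, and their values are given side by side only. Of the 82 members, 64 were called both at stage 4 and at early stage 5 against stage 3, 2 at stage 4 alone, 3 at early stage 5 alone and 13 at neither.

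The early stage 5 libraries differed from the others in processing and depth. They had fewer counts, more genes at 1 CPM (7915 to 10500, against 4511 to 8414 at stage 4 and 5466 to 8236 at stage 3), and entries for reads assigned to no gene, which the other libraries lack. The part of these differences in the stage comparisons was not tested.

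In the small subunit 27 of 34 genes were higher at stage 4 than at stage 3, with a median log2 fold change of 1.77. In the large subunit 39 of 47 were higher, with a median of 1.83. At early stage 5 the numbers were 26 of 34 (median 2.04) and 40 of 47 (median 2.003), with 1 lower in the large subunit. The subunits thus had like medians at either stage.

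The most abundant member per length was L10 (g4684; Scaffold582, 402457 to 415424), a protein that joins the large subunit late in its assembly. It had a mean of 6924 RPKM over the 16 libraries and was followed by L19 (g18870, 6188 RPKM), S24 (g983, 4420 RPKM), L22 (g3285, 3732 RPKM) and S8 (g7845, 3702 RPKM). L10 had 2251 and 3058 CPM in c cells and 3042, 1926 and 2444 CPM in p cells at stage 3, 8223 and 10633 CPM in c cells and 8212 and 7685 CPM in p cells at stage 4, and 9684 and 10878 CPM in c cells and 10999 and 11202 CPM in p cells at early stage 5. The i cells of stage 3 had 2792, 2741 and 3075 CPM. All libraries of the later stages lay above all stage 3 libraries, while those of stage 4 and early stage 5 overlapped. The log2 fold change was 1.81 ± 0.16 (SE) at stage 4 (adjusted p = 3.3e-25) and 2.06 ± 0.17 at early stage 5 (adjusted p = 1.5e-32 in edgeR), each against stage 3.

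By p-value the clearest rise at stage 4 was that of L6 (g7663; Scaffold826, 205016 to 211501), a protein on the outer face of the large subunit. It had 4243 and 6484 CPM in c cells and 6022 and 5261 CPM in p cells at stage 4, against 1370 and 1463 CPM in c cells and 1445, 1100 and 739 CPM in p cells at stage 3. The groups were well apart, with a log2 fold change of 2.20 ± 0.19 (SE, adjusted p = 6.5e-28 in edgeR). L13 (g26549), another large-subunit protein, averaged 3308 ± 762 CPM at stage 4 (SD, n = 4) and 724 ± 151 CPM at stage 3 (n = 5), a log2 fold change of 2.26. S2 (g17335), which lines the path by which mRNA enters the small subunit, averaged 5685 ± 497 CPM at early stage 5 (n = 4) and 1149 ± 351 CPM at stage 3 (n = 5), a log2 fold change of 2.29.

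L19, which bridges the subunits, was level between the later stages: it averaged 2419 ± 574 CPM at stage 3 (SD, n = 5), 7818 ± 1009 CPM at stage 4 and 7801 ± 303 CPM at early stage 5 (n = 4 each), with a log2 fold change of -0.06 ± 0.18 (SE) between the last and the middle stage. S8, a small-subunit protein, had 958 to 1629 CPM in c and p cells at stage 3, 3666 to 4799 CPM at stage 4 and 5803 to 6737 CPM at early stage 5. For S8 early stage 5 did not overlap stage 4, but their difference missed the threshold (log2 fold change 0.51 ± 0.20, adjusted p = 0.43 in edgeR).

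Several ribosomal proteins have known roles besides translation or in selected mRNAs. All gene models described next but S3 g4973 were called higher at both later stages. L5 (g708) and L11 (g21375), which carry 5S ribosomal RNA into the large subunit and in mammals bind the p53 regulator MDM2, differed in size of change. L5 averaged 2107 ± 337 CPM at stage 3 (SD, n = 5) and 6257 ± 1325 CPM at stage 4 (n = 4), with a log2 fold change of 1.66 ± 0.17 (SE). L11 averaged 638 ± 117 CPM at stage 3 and 1093 ± 219 CPM at stage 4, with a log2 fold change of 0.80 ± 0.26 (adjusted p = 0.026 in edgeR), the smallest among the 51 members of single-model proteins. Its call at stage 4 was lost in 9 of 22 alternatives, among them DESeq2 (adjusted p = 0.097), edgeR's likelihood ratio test (0.50) and library sizes as counted (0.38, with a log2 fold change of 0.39). It was also lost without stage 3 c replicate 1, stage 4 c replicate 1 or 2, stage 4 p replicate 1 or early stage 5 c replicate 2 (adjusted p = 0.054 to 0.17).

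SA (g27969), the ribosomal relative of the laminin receptor, had a log2 fold change of 1.11 ± 0.21 (SE) at stage 4 and 1.58 ± 0.21 at early stage 5. S6 (g1869), the substrate of S6 kinase in the growth-signalling pathway, had 1.79 ± 0.20 and 2.05 ± 0.21 at the same stages. S19 (g6897), mutated in Diamond-Blackfan anaemia in humans, had 1.56 ± 0.27 and 1.56 ± 0.28. S25 (g25692), which in yeast and mammals helps initiation at internal ribosome entry sites, had 1.67 ± 0.30 and 1.81 ± 0.30. L10a (g10576), found on only part of the ribosomes in mouse cells, had 1.88 ± 0.31 and 2.38 ± 0.31. L22, an RNA-binding protein, had 1.96 ± 0.21 and 2.16 ± 0.21. S3 (g8502), which holds the mRNA where it enters the ribosome, had 1.204 ± 0.27 and 1.68 ± 0.27. Each of these 7 genes was called in both stage comparisons in edgeR, and in each the stage 4 and early stage 5 libraries all lay above the stage 3 c and p libraries. In edgeR's likelihood ratio test the stage 4 calls of SA, S19, S25 and S3 (g8502) were lost, with adjusted p of 0.062 to 0.19. The other S3 model, g4973, was called in neither stage comparison. It shares a RefSeq locus ID with g8502, so that the levels of both are uncertain, as described below.

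The stalk proteins P0, P1 and P2 held the exceptions. P0 (g10861; Scaffold1224, 351999 to 362674), which anchors the stalk, rose like the rest, with 2272 to 2953 CPM at stage 4 against 591 to 947 CPM at stage 3 in c and p cells (log2 fold change 1.83 ± 0.22, SE). P2 had the largest log2 fold change at stage 4 among single-model members, 2.56 ± 0.27, with 978 to 2302 CPM at stage 4 against 147 to 336 CPM at stage 3.

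P1 had 2 gene models on separate scaffolds, and they went in opposite directions. The abundant model, g17477 (Scaffold2541, 115926 to 126489), had 4983 and 4540 CPM in c cells and 5279 and 4909 CPM in p cells at early stage 5, against 794 and 1818 CPM in c cells and 1459, 1090 and 795 CPM in p cells at stage 3. The groups did not overlap, with a log2 fold change of 2.03 ± 0.20 (SE, adjusted p = 8.3e-21 in edgeR). The other model, g4428 (Scaffold558, 189186 to 197583), had 11.9 and 5.27 CPM in c cells and 0 and 8.26 CPM in p cells at early stage 5, against 169 and 92.6 CPM in c cells and 69.8, 39.9 and 82.5 CPM in p cells at stage 3. It was called lower in edgeR's quasi-likelihood test, with a log2 fold change of -3.93 ± 1.12 (adjusted p = 0.0093). Its call was lost without any single early stage 5 library (adjusted p = 0.068 to 0.12), in edgeR's likelihood ratio test (0.067) and in an older form of edgeR's quasi-likelihood fit (0.080), and the adjusted p over its alternatives ranged from 0.0021 to 0.12.

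At stage 4, g4428 was at 33.6 and 21.4 CPM in c cells and 94.7 and 0 CPM in p cells, and at stage 3 in i cells at 55.4, 20.5 and 93.2 CPM. Stage 4 overlapped stage 3, with a log2 fold change of -1.40 ± 0.67 (adjusted p = 0.23 in edgeR). Per length, g4428 gave 5.9% of the RPKM of both P1 models in stage 3 libraries, 0.96% in stage 4 libraries and 0.11% in those of early stage 5.

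**Figure D3:**
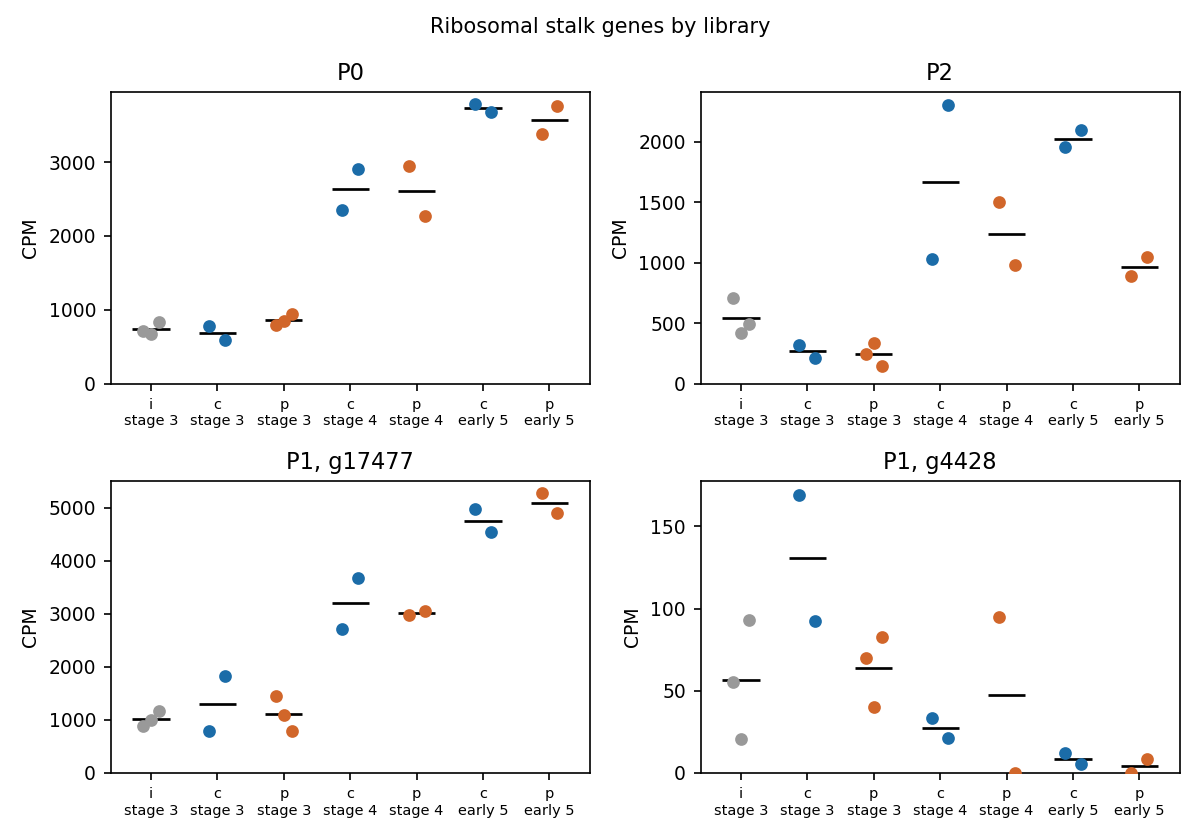
Level of the stalk genes P0 (g10861), P2 (g19196) and the P1 models g17477 and g4428 in each library, in CPM on a linear axis that starts at 0 and differs between panels; lines are group means, with c cells in blue, p cells in orange and i cells in grey. P0, P2 and g17477 are higher in every stage 4 and early stage 5 library than in every stage 3 c and p library, while g4428 is at most 11.9 CPM at early stage 5.

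Among the 51 single-model members, 51 were higher at stage 4 than at stage 3 and 50 at early stage 5. The exception was S21 (g15529), a small-subunit protein, with 242 to 312 CPM at early stage 5 against 86.9 to 194 CPM at stage 3 in c and p cells (log2 fold change 1.16 ± 0.41, SE, adjusted p = 0.070 in edgeR). At stage 4 it had 248 to 350 CPM and was called higher (1.31 ± 0.39, adjusted p = 0.015), a call lost in 4 of 22 alternatives, among them without stage 3 c replicate 1 (adjusted p = 0.098). Its libraries of either later stage lay above those of stage 3.

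The 30 members of the 15 proteins with 2 models behaved differently according to their loci. In 9 pairs the models shared a RefSeq locus ID, and in the deposited table these cannot be taken as separate genes. Both models of S11, S3a and L26 named 2 locus IDs, as did g15003 of L27 and g21433 of L15. Whether such pairs are 1 gene or 2 is thus not settled by the annotation. Of 78 locus IDs named for the members, 68 were found in the RefSeq annotation of the newer CAS_Ptep_4.0 assembly, and 7 of these 9 pairs matched a single locus there. The alignments had been filtered for unique placement, and reads from near-identical copies may have been removed or split, so that the levels of these 18 models are uncertain. This split of the pairs was made after their values had been seen.

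In the pairs of shared locus, 6 of 18 models were called higher at stage 4 and 6 of 18 at early stage 5, against 9 and 10 of 12 models in pairs of distinct loci. In 5 shared-locus pairs (L15, L27, L35, S18 and S3) the more abundant model stood at the level of other members while its partner was near 0 or low. For L35, g12688 averaged 1115 RPKM at stage 3, 2149 RPKM at stage 4 and 2618 RPKM at early stage 5, and g24858 averaged 1.7, 1.2 and 7.5 RPKM. For S18, g2540 averaged 684, 2485 and 2260 RPKM, and g2542, whose model lies inside that of g2540 on Scaffold395, averaged at most 6.2 RPKM.

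In the other 4 shared-locus pairs (L26, L30, S3a and S11) neither model reached the level of other members at stage 3. The summed RPKM of the pair at stage 3 was 8.6 for L26, 28.0 for L30, 65.7 for S3a and 1.85 for S11, while the 57 proteins outside the shared-locus pairs ranged from 168 to 3393 RPKM. At early stage 5 the sums were 379 for L26, 28.6 for L30, 93.9 for S3a and 4.6 for S11, against 455 to 11218 RPKM for the 57 proteins. The part of alignment filtering in these low values was not tested.

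L26, a protein near the exit of the peptide tunnel, gave the call of edgeR's quasi-likelihood test between early stage 5 and stage 4, where DESeq2 also called S20 (g23535) higher and L30 (g8051) lower. Its model g19277 (Scaffold3175, 25226 to 40650) had 503 and 6.95 CPM in c cells and 476 and 285 CPM in p cells at early stage 5, against 7.11 and 13.8 CPM in c cells and 0.173 and 5.53 CPM in p cells at stage 4. In 3 of 4 early stage 5 libraries it was far above stage 4, and the remaining c library overlapped stage 4. The log2 fold change was 5.65 ± 0.83 (SE, adjusted p = 5.9e-09 in edgeR), and the call was lost without c replicate 1 of early stage 5 (log2 fold change 3.05, adjusted p = 1.0). The partner model g20574 (Scaffold3959, 25547 to 36634) had 5.68 and 29.7 CPM in c cells and 4.04 and 46.3 CPM in p cells at early stage 5. In each region g20574 was higher in the library where g19277 was lower.

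**Figure D4:**
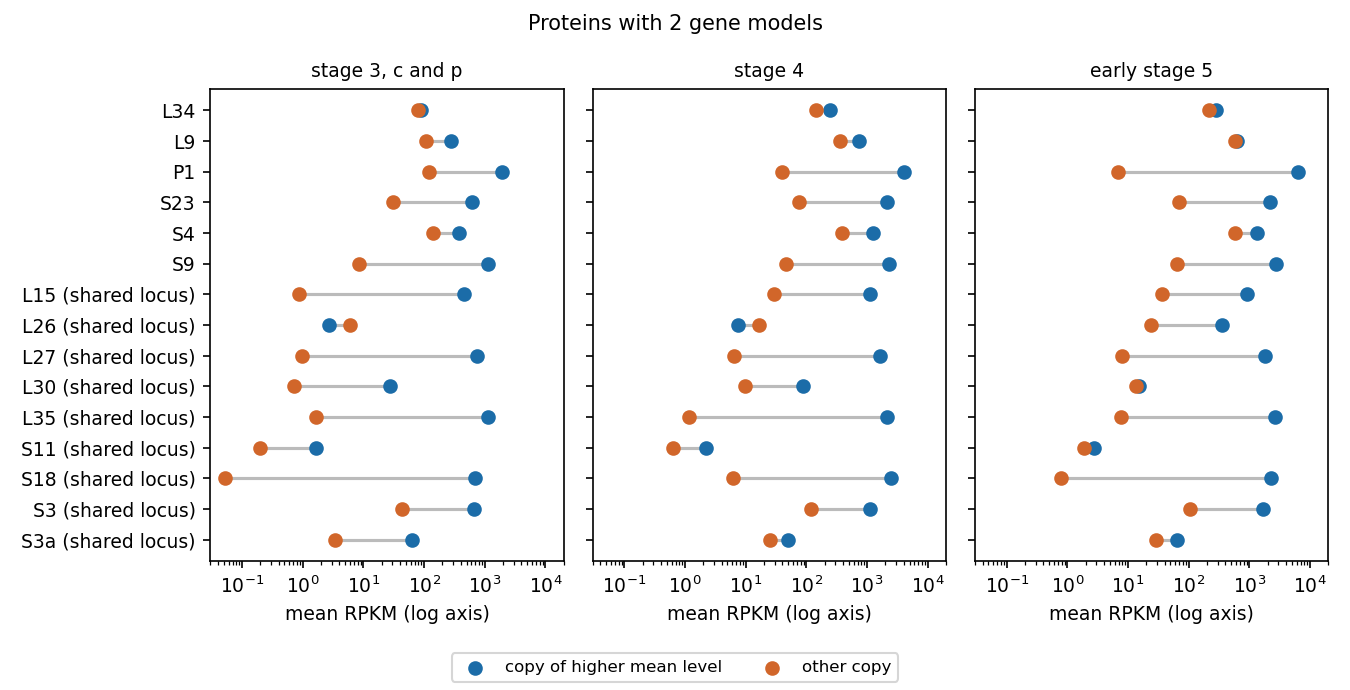
Mean RPKM (log axis) at stage 3 (c and p cells, 5 libraries), stage 4 and early stage 5 (4 libraries each) of both gene models of the 15 proteins with 2 models; blue marks the model of higher mean level over the 16 libraries and orange the other. The partner models of L15, L27, L35 and S18 lie below 100 RPKM at every stage, and for L26, L30, S3a and S11 both models are under 100 RPKM at stage 3 and stage 4.

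In the 6 pairs of distinct loci (L34, L9, P1, S23, S4 and S9) each model had a locus ID of its own. The L9 models still moved in opposite ways at early stage 5. There g20716 had 712 and 385 RPKM in c cells and 260 and 959 RPKM in p cells. In the same libraries g7878 had 380, 833, 1022 and 289 RPKM, and the sum of both averaged 1210 ± 83 RPKM (SD, n = 4). The levels of the single L9 models are thus uncertain. The part of alignment filtering in them was not tested. Both models of S4, S23 and L9 rose at stage 4: S4 by 2.22 ± 0.27 (g14256) and 1.86 ± 0.38 (g21157) on the log2 scale, S23 by 2.14 ± 0.32 (g21870) and 1.71 ± 0.35 (g7300), and L9 by 1.83 ± 0.32 (g7878) and 2.28 ± 0.35 (g20716), each called in edgeR. For S9, the abundant model g2449 rose (1.40 ± 0.23) and the neighbouring model g2451 on Scaffold388, at 0 to 67.1 CPM, did not pass the test (3.58 ± 1.66, adjusted p = 0.20). For L34, g6217 rose at stage 4 (2.16 ± 0.42), and g7633 was called only at early stage 5 against stage 3 (1.82 ± 0.61, adjusted p = 0.045), a call lost in 13 of 22 alternatives.

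The stage 3 p library of replicate 3 had the fewest members at 1 CPM, 66. L9 g20716 also varied between replicates. It had 350 to 1254 CPM in the 4 early stage 5 libraries, against 0.0851 to 238 CPM in the 5 c and p libraries of stage 3, with 0.0851 CPM in p cells replicate 3. In stage 3 i cells it had 172, 0 and 163 CPM. The partner g7878 was highest in the i library where g20716 had 0 (433 RPKM, against 164 and 314 RPKM). The models also moved in opposite ways at early stage 5, as given above, while in stage 3 p cells both were lowest in replicate 3. S15 (g21298), a small-subunit protein whose model begins at the first base of its scaffold, was likewise at 0.141 CPM in i cells replicate 3 and 0.340 CPM in p cells replicate 3 at stage 3, with 112, 13.98 and 51.3 to 95.7 CPM in the other stage 3 libraries. Low values of this kind were found in 2.68% of 522 cases for the members, counted where a gene had at least 10 CPM in 1 replicate and at most 3 counts in another of its group. Over all genes at 1 CPM or more the share was 31.4% of 52545 cases, and over the 1879 genes with a mean of at least 100 CPM it was 1.67% of 12970.

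The members varied less between replicates than most genes, but the sets compared were not matched for level. The SD of log2(CPM + 1) within groups had a median of 0.38 over the 82 members, 0.34 over the 63 members outside shared-locus pairs and the mitochondrial S12, 0.57 over the 1879 genes with a mean of at least 100 CPM and 1.41 over all 13511 genes. Between group means the SD was 1.04, 1.03, 0.62 and 1.08 in the same sets. The members of smallest SD between groups were L35 g24858 (0.44), S11 g27170 (0.51), S21 (0.66), S18 g2542 (0.66) and L11 (0.71). Of these, L35 g24858 and S11 g27170 had at most 9 counts in any library and S18 g2542 at most 87. Near 0 the log2(CPM + 1) can vary little, so that their small SD does not show steady levels. Those of largest SD were L26 g19277 (3.1), L30 g8051 (2.05), L9 g20716 (2.02), S3a g13878 (1.93) and S15 (1.91). The levels of the L26, L30, L9 and S3a models are uncertain, as described above.

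L30 g8051 had 59.6 and 22.8 CPM in c cells and 120 and 13.3 CPM in p cells at stage 4, against 15.2 and 51.5 CPM in c cells and 0.265, 0.0982 and 0.255 CPM in p cells at stage 3. The groups overlapped, and it was called higher at stage 4 (log2 fold change 4.25 ± 1.44, SE, adjusted p = 0.039 in edgeR) but not at early stage 5. The stage 4 call was lost in 16 of 22 alternatives, with adjusted p from 0.00051 to 0.56 over all of them. S3a g13878, a small-subunit protein that binds initiation factors, had 12.97 to 39.1 CPM at early stage 5 against 0.170 to 6.81 CPM at stage 3 and was not called (3.29 ± 1.42, adjusted p = 0.21).

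Levels of the 63 members outside shared-locus pairs were correlated across stages. The Pearson correlation of mean log2(CPM + 1) over these genes was 0.93 between stage 4 and stage 3 c cells, 0.90 between stage 4 and stage 3 p cells, 0.97 and 0.98 between early stage 5 and stage 4, and 0.87 and 0.85 between early stage 5 and stage 3. These are descriptions over genes of the same libraries, and genes are not independent replicates. Replicates of a group gave 0.78 to 0.98. Summed over models, the 57 proteins outside shared-locus pairs had a median of 700 RPKM at stage 3, 1963 RPKM at stage 4 and 2277 RPKM at early stage 5, and the SD of their log2 RPKM was 0.97 at each of the 3 stages. L34 was lowest of these proteins at stage 3 and stage 4, and S21 at early stage 5.

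The mitochondrial S12 (g14409) did not pass the test in either comparison with stage 3. It had 58.05 and 89.4 CPM in c cells and 31.0 and 72.6 CPM in p cells at early stage 5, against 17.4 and 0.533 CPM in c cells and 0, 42.3 and 51.0 CPM in p cells at stage 3. The groups overlapped, with a log2 fold change of 1.85 ± 0.87 (SE, adjusted p = 0.29 in edgeR).

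Other genes of the translation machinery were listed by their descriptions and compared in the same fit. Both ubiquitin fusion genes rose at stage 4, with a median log2 fold change of 1.60. Of 61 translation factor genes tested 26 were higher and 0 lower (median 1.02), and of 46 ribosome biogenesis genes 15 were higher and 0 lower (median 0.95), against a median of 1.79 for the members and 0.00 for all genes. Of 72 mitochondrial ribosomal protein genes 1 was higher and 0 lower (median 0.30), and of 10 RNA polymerase I genes 1 was higher and 0 lower (median 0.09). Over all 13306 genes tested, 4.86% were higher and 3.58% lower. At early stage 5 against stage 3, 22 of 61 translation factor genes, 11 of 46 ribosome biogenesis genes and 2 ubiquitin fusion genes were higher. Of the mitochondrial ribosomal and RNA polymerase I genes 0 were called in edgeR. Unadjusted p was under 0.05 for 5 of 72 mitochondrial ribosomal genes, beside 1835 of all 13306 genes. Over all genes tested, 3.91% were higher and 2.72% lower in that comparison.

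**Figure D5:**
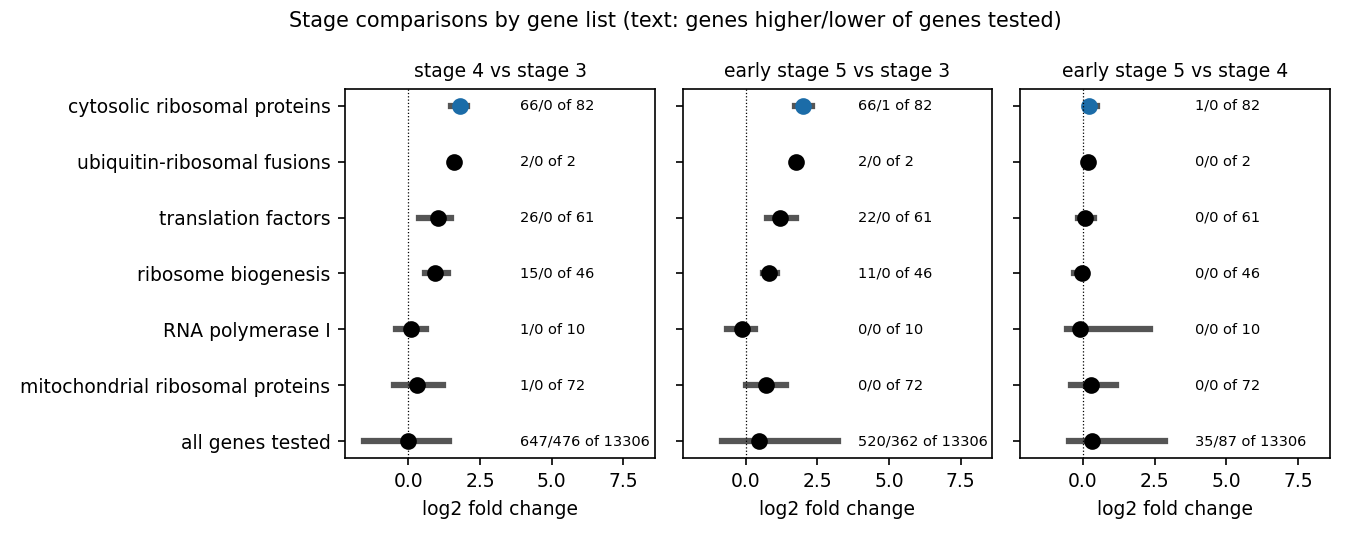
Median (points) and interquartile range (bars) of the log2 fold change of each gene list and of all genes tested, for stage 4 against stage 3, early stage 5 against stage 3 and early stage 5 against stage 4; the text in each panel gives the genes called higher and lower of those tested. The cytosolic ribosomal protein genes have the highest medians of the lists in the first 2 panels, 1.79 and 2.01.

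As shares of all counts, the translation factor genes took 2.10% to 2.59% at stage 3, 3.68% to 4.32% at stage 4 and 3.85% to 4.84% at early stage 5. The mitochondrial ribosomal protein genes took 0.212% to 0.306%, 0.228% to 0.284% and 0.251% to 0.274% at these stages. The stages did not overlap between stage 3 and the later stages for the translation factors, and they overlapped for the mitochondrial ribosomal protein genes.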

How the data were processed

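RNA was amplified with a stranded SMARTer kit and read as single ends. The authors aligned reads to Ptep_1.0 with BLAT, filtered alignments for coverage, identity and uniqueness, and ran htseq-count (HTSeq 0.5.4p5 in the submitters' processing notes) on the AUGUSTUS models, version aug3.1. The deposited counts are raw counts per gene, and the deposited RPKM values are the authors' own, used here to set genes side by side per length. The 5 rows naming no gene, filled for early stage 5 alone (8.18% to 8.85% of counts) and blank for the others, were left out. CPM values use TMM factors over the 16 libraries.

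Genes with at least 1 CPM in 1 library of a fit were tested with edgeR 4.0.16 (quasi-likelihood, TMM, Benjamini-Hochberg adjustment over all genes tested, threshold 0.05) in R 4.3.3. The SE of a log2 fold change is its size divided by the square root of F. DESeq2 1.42.0 served as an alternative, with other scalings, filters, a replicate block and each library left out. Shares called over all genes are given for the main test alone, so that numbers called in the alternatives have no background. Tests were checked on simulated data, where several comparisons, above all I and II, gave more false calls than the threshold allows, and most changed genes were missed except between c and p cells at early stage 5. The labels do not tie replicates to separate embryos, so that p-values measure the spread between these libraries, which may be technical.

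Named genes were, in each comparison, up to 3 called members per direction of lowest p whose libraries did not overlap, the 5 of highest mean RPKM, the 5 of largest and of smallest SD between groups, proteins with 2 models and proteins with known special roles (L38, also listed, had no member). The members and lists were chosen with earlier results of these data known.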

Additional observations from a re-analysis of the deposited data

Results flagged for a closer look

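The count file has rows for reads assigned to no gene, which no comparison used. They were filled for early stage 5 alone, where they held 8.36% and 8.85% of all counts in c cells and 8.21% and 8.18% in p cells, and they were blank for every library of stage 3 and stage 4, so that no level of stage 3 or stage 4 can be set beside them. Their part in the stage comparisons was not tested. No group had 4 or more libraries, so that single libraries were not tested for standing apart from their group.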

How the results depend on the processing

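Of 411 alternatives over 26 results on the members as a whole, 388 kept the value within the limits set for a change. For the number of members called, edgeR's likelihood ratio test gave 38 at stage 4 against stage 3 and 0 between c and p cells at early stage 5, where the filter of 10 counts and the replicate block also gave 0. DESeq2 gave 2 in comparison III, 2 between c and p cells at stage 3 and 3 between early stage 5 and stage 4. For the last of these, DESeq2 size factors and library sizes as counted gave 2 each, and the earlier quasi-likelihood form, chosen after seeing the data, gave 4. Without single libraries the number called was 60 to 67 at stage 4 and 64 to 70 at early stage 5 against stage 3, 0 to 1 between early stage 5 and stage 4, and 0 between c and p cells at early stage 5. With library sizes as counted the median log2 fold change of the members was 1.38 at stage 4 and 1.65 at early stage 5 against stage 3, and the median over all genes at early stage 5 moved to 0.10. Without single libraries the median was -0.21 to 0.25 in comparison II, and between c and p cells -0.035 to 0.28 at stage 4 and -0.13 to 0.028 at early stage 5. The log2 ratio of shares between c and p cells at stage 4 was 0.16, and 0.088 by summed RPKM, and without single libraries it was 0.087 to 0.23 at stage 4 and -0.12 to 0.028 at early stage 5. The cause of these changes was not tested. Same-numbered replicates did not deviate together (r = -0.02 to 0.04 over genes), and the replicate block changed the call of no comparison but that between c and p cells at early stage 5. Of 1631 alternatives for 75 values of single genes, 77 lost a call, 11 gained one and 2 changed sign, both for L19 between early stage 5 and stage 4 (0.012 with the filter of 10 counts, -0.17 to 0.074 without single libraries, the highest without stage 4 p replicate 1).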
